A study of Mus musculus with 4 samples.

Results

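Respiratory complex III is described here through 10 genes, 9 of which encode subunits (Uqcr11, Uqcrc1, Uqcrc2, Uqcrfs1, Uqcrq, Uqcrb, Uqcrh, Uqcr10 and Cyc1), while Uqcc2 encodes an assembly factor. All probe sets annotated with exactly 1 of these symbols were taken, which gave 14 of the 21789 probe sets that carry a single gene symbol. They cover all 10 genes, of 19938 genes measured. Uqcr11 and Uqcc2 were chosen by their low log2 values in ethanol in this same comparison, and the other members as genes of the same complex, so the differences of Uqcr11 and Uqcc2 are a description with no test. The question was whether the other subunits of the complex followed them.

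RNA came from the whole fetal brain at embryonic day 16, in the inbred mouse strain C57BL/6J. The mothers of the ethanol group had received ethanol in saline at 2.5 g per kg on gestational days 14 and 16, and those of the control group saline alone in equal volume. Each of the 2 ethanol and 2 control arrays carried RNA of 3 mice, 12 mice in all, and the sex of the fetuses is recorded as unknown. Each array was an Affymetrix whole-transcript array, and each value below is a deposited log2 value of 1 probe set on 1 array, in which a step of 1 is a doubling of signal. The litters behind each pool are not named, so errors measure the spread between these pools, and fewer cells of a type cannot be told apart from less RNA per cell.

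Complex III is the ubiquinol-cytochrome c oxidoreductase of the inner mitochondrial membrane. It takes electrons from reduced coenzyme Q, hands them to cytochrome c, and pumps protons in the course of the Q cycle. Its redox centres sit in cytochrome b, which the mitochondrial genome encodes, in cytochrome c1 and in the Rieske iron-sulfur protein, and the other subunits are core proteins and small accessory proteins. Assembly starts when newly made cytochrome b is bound by the factors Uqcc1 and Uqcc2, and mature neurons rely on the finished chain for most of their ATP.

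The pools differed in tissue markers before any comparison of groups. For 9 neural markers the log2 of the summed signal was 15.89 and 15.87 in ethanol and 15.87 and 15.90 in control. Of the 9, 4 had a difference below 0 and 5 above (median 0.008). Their median log2 values were 11.6 and 11.5 in ethanol 1 and 2, against 11.7 in both control 1 and control 2. The log2 of the summed signal of 16 skeletal muscle markers was 11.5 in ethanol 1 and 13.0 in ethanol 2, against 14.5 in control 1 and 11.4 in control 2. All 16 were measured and 16 of 16 had a difference below 0 (median -0.76), with groups apart in 0 of them. Without control 1 the muscle median was 0.40, on the other side of 0. For 6 meningeal and pericyte markers that sum was 12.8 and 13.0 in ethanol and 13.5 and 12.9 in control, and 6 of 6 had a difference below 0 (median -0.20). For 5 endothelial markers it was 11.7 and 11.7 in ethanol and 12.0 and 11.7 in control, with 5 of 5 below 0 (median -0.16), and for 5 choroid plexus markers 13.4 and 13.4 in ethanol and 13.6 and 13.4 in control, with 4 of 5 below 0 (median -0.10). Without control 1 the median was 0.02 for the meningeal and pericyte, -0.02 for the endothelial and -0.03 for the choroid plexus markers. Of 6 erythroid markers 3 were measured, with sums of 10.4 and 10.9 in ethanol and 11.2 and 10.2 in control. Among the neural markers the neuronal tubulin Tubb3, singled out after its values were seen, had log2 values of 11.2 and 11.5 in ethanol and 11.7 and 11.7 in control, a difference of -0.38 ± 0.11 that did not pass the adjusted test. Tubb3 was the lowest of its list, and others did not follow it. Dcx stood at -0.01, Stmn2 at 0.01 and Map2 at 0.05, and Neurod6 was highest at 0.13, with groups apart and ethanol higher. The part of these cell types in the values below was not tested. Xist, the RNA of the inactive X chromosome, had log2 values of 12.0 and 12.8 in ethanol and 6.10 and 12.8 in control, the low value being that of control 1. Control 1 was highest in the muscle sum and stood alone in its low Xist value, and the differences of the members without it are given with the results. Ethanol 2 was next in the muscle sum, at 13.0. Values without control 1 therefore still set this pool, with ethanol 1, against control 2 at 11.4, and are not balanced for muscle. All 14 probe sets lay above the lower quartile of every array, which was 6.45 to 6.55.

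**Figure D1:**
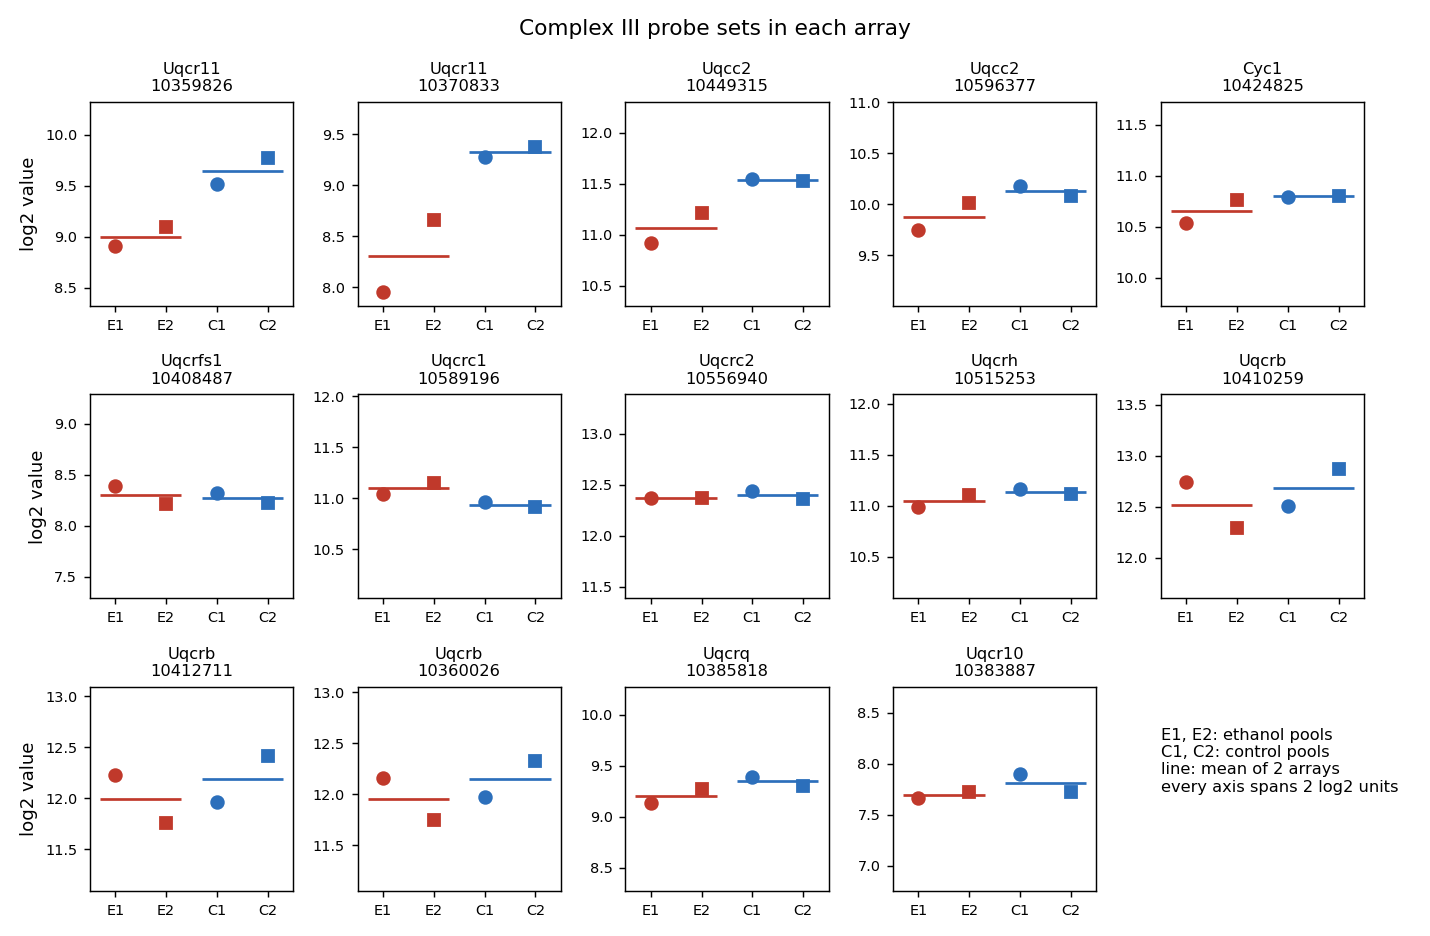
Deposited log2 values (vertical axes, each spanning 2 log2 units) of the 14 complex III probe sets in the ethanol pools (E1, E2, red) and the control pools (C1, C2, blue), with lines at the group means. Both ethanol pools lie below both control pools for Uqcr11 and Uqcc2, and also, with gaps of 0.002 to 0.03, for Cyc1, Uqcrh, Uqcrq and Uqcr10. Uqcrc1 lies the other way by 0.16 on average, and the 3 Uqcrb probe sets alternate between pools.

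Uqcr11, a small accessory subunit of the complex, lay lower in the ethanol pools in both of its probe sets. Probe set 10359826 of Uqcr11 had log2 values of 8.90 and 9.09 in ethanol and 9.51 and 9.77 in control. Its means were 9.0 ± 0.13 in ethanol and 9.64 ± 0.19 in control (SD, n = 2 each), a difference of -0.64 ± 0.12 (SE), or 0.641 times the control signal. The lower control pool exceeded the higher ethanol pool by 0.42, more than the gap between the pools of either group, which was 0.19 in ethanol and 0.26 in control.

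Probe set 10370833 of Uqcr11 had log2 values of 7.95 and 8.66 in ethanol and 9.28 and 9.38 in control. The means were 8.30 ± 0.50 in ethanol and 9.33 ± 0.07 in control (SD, n = 2 each), a difference of -1.02 ± 0.22, or 0.492 times the control signal. Here the 2 ethanol pools were 0.70 apart, with ethanol 1 the lowest, while the control pools were 0.10 apart. The groups did not overlap in either probe set, as in 14.3% of all probe sets with ethanol lower, a share from which nothing is read for genes chosen by these values. Among all 21789 differences ordered from the lowest, the 2 probe sets stood at places 40 and 8.

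Uqcc2, which binds new cytochrome b together with Uqcc1, was likewise lower in ethanol in both probe sets. Probe set 10449315 of Uqcc2 had log2 values of 10.9 and 11.2 in ethanol and 11.5 and 11.5 in control, a difference of -0.47 ± 0.11. Probe set 10596377 of Uqcc2 had 9.75 and 10.0 in ethanol and 10.2 and 10.1 in control, a difference of -0.25 ± 0.10. In both, ethanol 1 was the lowest pool, the groups did not overlap, and the ethanol pools lay 0.29 and 0.26 apart. Their places from the lowest difference were 75 and 421.

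Since the groups did not overlap, leaving out an array could change only the size of the differences of Uqcr11 and Uqcc2. They ranged from -0.77 to -0.51 and from -1.37 to -0.67 for the 2 Uqcr11 probe sets, and from -0.62 to -0.33 and from -0.38 to -0.12 for the 2 Uqcc2 probe sets. Without control 1 they were -0.77 and -1.07 for Uqcr11 and -0.46 and -0.21 for Uqcc2. Without ethanol 1 they were smaller, at -0.55 and -0.67 for Uqcr11 and -0.33 and -0.12 for Uqcc2. The Uqcc2 value of probe set 10596377 moved most in proportion, to -0.12 without ethanol 1, against -0.25 with all arrays.

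Of the 2 probe sets of each gene, only 1 sits among the gene's own neighbours in identifier order, an order that mostly follows the genome on this array. Around probe set 10370833 of Uqcr11, which lies between those of Mbd3 and Tcf3, 10 of the 10 nearest named probe sets belong to genes within 3 Mb of Uqcr11. Around probe set 10359826, between those of Pogk and Gm4847, 0 of 10 do. For Uqcc2 the counts were 10 of 10 around 10449315 and 0 of 10 around 10596377. For Uqcrb they were 8 of 10 around 10410259 and 0 of 10 around both 10412711 and 10360026. The positions of the probes themselves were not used here. Probe sets of 1 gene can share targets and are not independent measurements, and whether signal of near-identical copies enters them was not tested.

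The promoters of 6 members were in the RefSeq table of build GRCm38.p6 (Uqcr11, Uqcc2, Uqcrc1, Uqcrh, Uqcr10 and Uqcrfs1), and 3 are shown because 2 of them belong to the genes that lay low together and the third to the subunit that lay the other way. Each stretch is 150 bases, from 130 bases before the annotated start to 20 after it, 5′ to 3′ on the strand of the gene. Capitals mark matches to letters known from the sites of 3 regulators of respiratory genes, GCGCANGC for NRF1, CCGGAAGT for the ETS factor GABPA and AAGATGGC for YY1, searched on both strands. The letters were chosen after these promoters had been read, so the counts below describe them and test nothing.
Uqcr11, chr10:80406802-80406951, minus strand: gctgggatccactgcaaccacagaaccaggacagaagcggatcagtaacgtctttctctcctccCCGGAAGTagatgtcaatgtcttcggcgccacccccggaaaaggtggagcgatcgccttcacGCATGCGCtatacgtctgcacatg
Uqcc2, chr17:27133872-27134021, minus strand: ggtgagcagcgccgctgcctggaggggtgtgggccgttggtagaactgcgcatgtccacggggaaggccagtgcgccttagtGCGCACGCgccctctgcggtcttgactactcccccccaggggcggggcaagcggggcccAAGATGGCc
Uqcrc1, chr9:108936518-108936667, plus strand: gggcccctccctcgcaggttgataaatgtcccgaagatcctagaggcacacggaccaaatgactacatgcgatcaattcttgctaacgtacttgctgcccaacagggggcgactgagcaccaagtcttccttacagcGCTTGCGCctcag

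Over the full 300 bases (250 before and 50 after the start), the NRF1 letters were present in 3 of the 6 promoters (Uqcr11, Uqcc2 and Uqcrc1), against 9.95% of 32851 promoters in the table. The ETS letters were present in 2 (Uqcr11 and Uqcrh), against 3.89%, and the YY1 letters in 1 (Uqcc2), against 2.75%. Uqcrc1, which was not lower in ethanol, held the NRF1 letters at 3 positions, 2 of them overlapping each other beyond the printed stretch. These matches are letters in a window and not measured binding.

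The probe sets of the other 8 subunit genes lay nearer to 0 than those of Uqcr11 and Uqcc2, a contrast between genes that was not tested and that is small against the lesser Uqcc2 value of -0.25. Their 10 probe sets ranged from -0.20 to 0.16, with a median log2 difference of -0.13, against 0.007 over all probe sets. With 1 probe set per gene the median was -0.10, and 6 of the 8 genes had all their probe sets below 0, against 45.8% of all genes. The median over the 10 probe sets was nearer to 0 with any array left out, at -0.07 without ethanol 1, -0.0075 without ethanol 2, -0.08 without control 1 and -0.04 without control 2. The value without ethanol 2 counts Uqcrb 3 times, as its probe sets then lay at 0.05, 0.04 and 0.01. The 7 genes with 1 probe set then stood at -0.26 (Cyc1), -0.22 (Uqcrq), -0.15 (Uqcrh), -0.15 (Uqcr10), -0.03 (Uqcrc2), 0.11 (Uqcrc1) and 0.12 (Uqcrfs1). With 1 probe set per gene, the median of all 10 complex III genes was -0.15 without ethanol 2, against -0.13 with all arrays. Both medians include Uqcr11 and Uqcc2, chosen for their low values, so they do not describe the other 8 genes. Of the 10 probe sets, 3 of which belong to Uqcrb and gave 1 order of pools, 8 were below 0, against 46.8% of all probe sets, and the groups lay apart with ethanol lower in 4 (14.3% of all probe sets) and with ethanol higher in 1 (16.9% of all probe sets). Bright probe sets leaned the other way from all probe sets. Among the 11459 with a mean above the median, to which 9 of the 10 belong, 2382 lay apart with ethanol lower and 1562 higher. None of the 10 passed the test: limma called 0 of 21789 probe sets at a Benjamini-Hochberg adjusted p under 0.05 (0.0%), and the adjusted p of the 10 ran from 0.978 to 0.991. At an unadjusted p under 0.05, limma had 632 probe sets (2.9%) and the ordinary test without shared variance had 829, with 0 of the 10 among those of limma. A fold of at least 1.2 at an unadjusted p under 0.05 was likewise met by 0 of the 10, and by 1.01% of all probe sets.

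**Figure D2:**
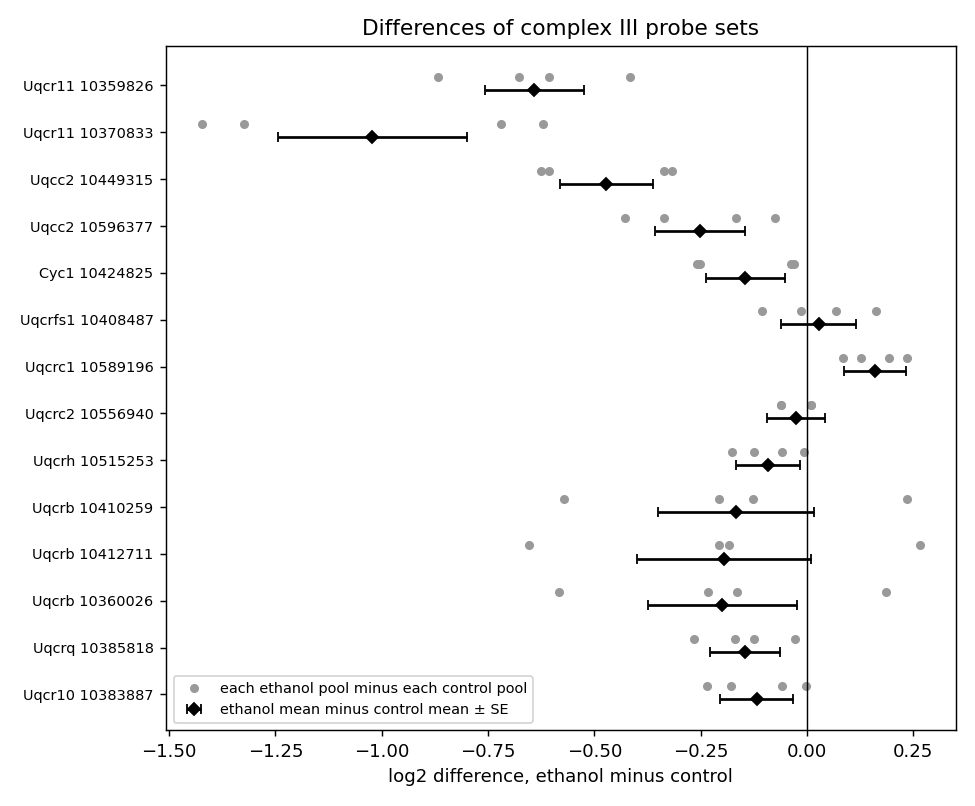
Log2 differences (horizontal axis, ethanol minus control) of the 14 probe sets, with the difference of group means ± SE as diamonds and the 4 differences between single ethanol and control pools as grey points. All 4 points lie below 0 for both Uqcr11 and both Uqcc2 probe sets and for Cyc1, Uqcrh, Uqcrq and Uqcr10, and all 4 above 0 for Uqcrc1.

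Among the redox subunits, Cyc1 encodes cytochrome c1, the heme protein that passes electrons on to cytochrome c. Probe set 10424825 of Cyc1 had log2 values of 10.54 and 10.76 in ethanol and 10.79 and 10.80 in control, a difference of -0.14 ± 0.09. Ethanol 1 alone was clearly lower, since ethanol 2 lay 0.03 and 0.04 below the control pools, and the difference was -0.03 without ethanol 1 and -0.15 without control 1. Uqcrfs1 encodes the Rieske iron-sulfur protein. Probe set 10408487 of Uqcrfs1 had 8.39 and 8.22 in ethanol and 8.32 and 8.23 in control, a difference of 0.03 ± 0.09, with overlapping groups (0.08 without control 1).

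The core proteins Uqcrc1 and Uqcrc2 face the mitochondrial matrix and are related to the processing peptidase that cuts targeting sequences from imported proteins. Uqcrc1 was the member that lay above 0 with groups apart. Probe set 10589196 of Uqcrc1 had log2 values of 11.05 and 11.15 in ethanol and 10.96 and 10.92 in control, a difference of 0.16 ± 0.07 (limma, unadjusted p = 0.0749, adjusted p = 0.978). That difference was 0.11 to 0.21 with each array left out in turn, and 0.18 without control 1. Probe set 10556940 of Uqcrc2 had 12.37 and 12.37 in ethanol and 12.43 and 12.36 in control, a difference of -0.03 ± 0.07, so both ethanol pools lay between the control pools, and without control 1 the value was 0.01.

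Of the accessory subunits, Uqcrq, Uqcrh and Uqcr10 lay slightly lower in ethanol. Probe set 10385818 of Uqcrq had log2 values of 9.13 and 9.27 in ethanol and 9.40 and 9.30 in control, a difference of -0.15 ± 0.08. Uqcrh, the acidic hinge protein at the docking site of cytochrome c, had 10.99 and 11.10 in ethanol and 11.16 and 11.11 in control in probe set 10515253, a difference of -0.09 ± 0.08. Probe set 10383887 of Uqcr10 had 7.67 and 7.72 in ethanol and 7.90 and 7.73 in control, a difference of -0.12 ± 0.09.

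In all 3 of these genes the separation of the groups was thin. Ethanol 2 lay below control 2 by 0.03 for Uqcrq, by 0.007 for Uqcrh and by 0.002 for Uqcr10, less than the gap between the control pools. Control 1, the pool highest in the muscle markers, was also the highest pool for these 3 genes, for Uqcrc2 and for both probe sets of Uqcc2, there by 0.02 and 0.09 over control 2. Other members went the other way. Control 2, lowest in the muscle sum at 11.4 with ethanol 1 close to it at 11.5, was highest for both Uqcr11 probe sets and the 3 Uqcrb probe sets. It was also highest for Cyc1, but by only 0.006 over control 1. The Uqcrb probe sets were lowest in ethanol 2 and control 1, the pools with the highest muscle sums. Without control 1 the differences were -0.10 for Uqcrq, -0.07 for Uqcrh and -0.03 for Uqcr10. The part of muscle RNA in these values was not tested.

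Uqcrb, an accessory subunit close to the cytochrome b core, followed neither Uqcr11 nor the groups. Probe set 10410259 of Uqcrb had log2 values of 12.74 and 12.29 in ethanol and 12.50 and 12.87 in control, a difference of -0.17 ± 0.18. Probe set 10412711 had 12.23 and 11.76 in ethanol and 11.96 and 12.41 in control, and probe set 10360026 had 12.17 and 11.75 in ethanol and 11.98 and 12.33 in control, with differences of -0.19 ± 0.20 and -0.20 ± 0.18. All 3 gave the same order of pools, with control 2 highest, then ethanol 1, control 1 and ethanol 2. The gaps within groups, 0.42 to 0.47 in ethanol and 0.35 to 0.45 in control, exceeded the differences between groups. Leaving out 1 array moved the Uqcrb differences over ranges of -0.39 to 0.05, -0.43 to 0.04 and -0.41 to 0.01, with -0.35, -0.42 and -0.37 without control 1.

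**Figure D3:**
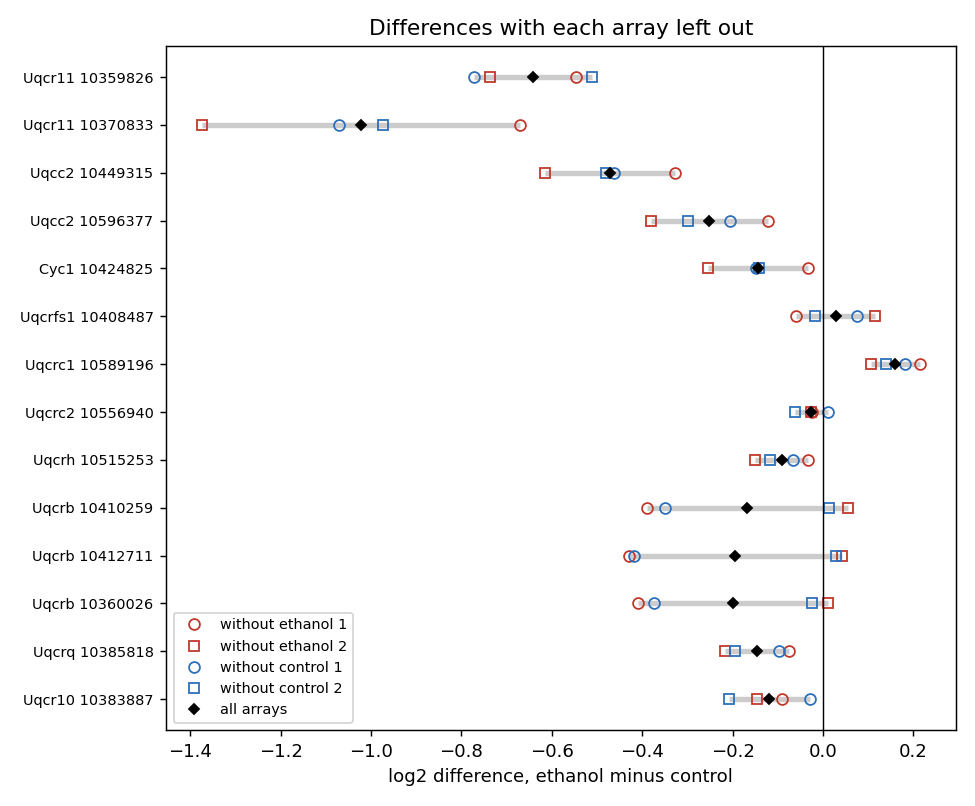
Log2 differences (horizontal axis, ethanol minus control) of the 14 probe sets with all arrays (black diamonds) and with each array left out (open symbols, red for an ethanol array and blue for a control array). Values with groups apart cannot cross 0, which holds for Uqcr11 (chosen for low values, at or below -0.51 throughout), Uqcc2, Cyc1, Uqcrh, Uqcrq, Uqcr10 and Uqcrc1. The values of Uqcrb, Uqcrc2 and Uqcrfs1, whose groups overlap, cross 0.

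The genes whose pool pattern was most like that of Uqcr11 were sought over the 4 arrays, by the root mean square distance between log2 values centred on each gene's own mean. Among 19063 genes compared with probe set 10359826, the brighter of the 2 Uqcr11 probe sets and the one away from the gene's own neighbours in identifier order, the nearest were Chga (the secretory granule protein chromogranin A, distance 0.06), Cisd1 (an iron-sulfur protein of the outer mitochondrial membrane, 0.08), Tbcb (a tubulin folding cofactor, 0.09), Ciapin1 (a cytosolic iron-sulfur assembly protein, 0.11) and Cycs (cytochrome c, 0.13). Uqcc2 came sixth at 0.13. Both genes were chosen for low values in ethanol on these same arrays, so their nearness follows in part from that choice. Chga had log2 values of 10.3 and 10.6 in ethanol and 10.9 and 11.1 in control. The other subunits, which were not chosen by their values, were farther away. Cyc1 stood at place 568, Uqcrq at 960 and Uqcrh at 1976, and Uqcrc1 was last of the members at 17203.

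The genes nearest to probe set 10449315 of Uqcc2 were Tmem109 (0.02), Dnal4 (a dynein light chain, 0.03), Ndufb2 (a subunit of complex I, 0.04), Gstz1 (an enzyme of tyrosine breakdown, 0.05) and Gid4 (a subunit of a ubiquitin ligase, 0.05). Cycs stood at place 14 and Uqcr11 at place 146, and the places of the other members ran from 477 (Cyc1) to 16222 (Uqcrb). With 4 arrays these distances are a description of shared order and size only.

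The direct partners of the complex varied from gene to gene. Cycs, which carries electrons away from complex III, had log2 values of 12.15 and 12.60 in ethanol and 12.85 and 12.93 in control in its brightest probe set, a difference of -0.51 ± 0.15. Of its other 2 probe sets, 1 stood at -0.44 and the other at 0.01, with log2 values of 5.91 to 6.16 that lay below the lower quartile of every array. The testis form Cyct also lay below it, at 5.88 to 6.04, with a difference of 0.04 ± 0.08. Pmpcb, the processing peptidase subunit related to Uqcrc1, stood at -0.22 ± 0.08 and its partner Pmpca at -0.01 ± 0.07.

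The further assembly factors of complex III gave small differences. Of 7 listed, 6 were measured, with 4 below 0, against 45.8% of all genes, and 0 past the adjusted test in either direction. Uqcc1, the partner of Uqcc2 on cytochrome b, had log2 values of 9.30 and 9.42 in ethanol and 9.54 and 9.42 in control, a difference of -0.12 ± 0.08. Uqcc3 stood at -0.05 ± 0.09, Bcs1l, which inserts the Rieske protein, at -0.04 ± 0.08, and Smim4 at -0.01 ± 0.07. Lyrm7, a chaperone of the Rieske protein, stood at 0.01 ± 0.08 and Ttc19 at 0.05 ± 0.09.

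Among the other respiratory complexes, with each gene taken by its brightest probe set, the lists of complexes I, IV and the ATP synthase had medians within 0.05 of 0, while that of complex II was about as far from 0 as complex III. There was no adjusted call in either direction in any of them. Complex I, which feeds coenzyme Q from NADH, had 34 measured subunits with 19 below 0 and a median of -0.005, from Ndufb2 at -0.39 ± 0.11 to Ndufa1 at 0.35 ± 0.11. Complex II, which feeds it from succinate, had 3 of 4 subunits below 0 and a median of -0.12 (-0.05 without ethanol 1 and -0.08 without control 1), with Sdhb at -0.27 ± 0.11, Sdhd at -0.23 ± 0.07, Sdha at -0.01 ± 0.08 and Sdhc at 0.04 ± 0.08. Complex IV, the cytochrome c oxidase, had 8 of 10 below 0 and a median of -0.02, from Cox6b1 at -0.25 ± 0.16 to Cox8a at 0.03 ± 0.07. The ATP synthase had 12 of 16 below 0 and a median of -0.04, from Atp5pb at -0.20 ± 0.12 to Atpif1, its inhibitor, at 0.09 ± 0.07. The median of the 10 complex III genes was -0.13 on the same basis, and it includes Uqcr11 and Uqcc2, which were chosen for their values, and was -0.10 without these 2 genes. Without control 1 the medians were 0.01 for complex I, -0.03 for complex IV, -0.004 for the ATP synthase and -0.08 for the 10 complex III genes.

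**Figure D4:**
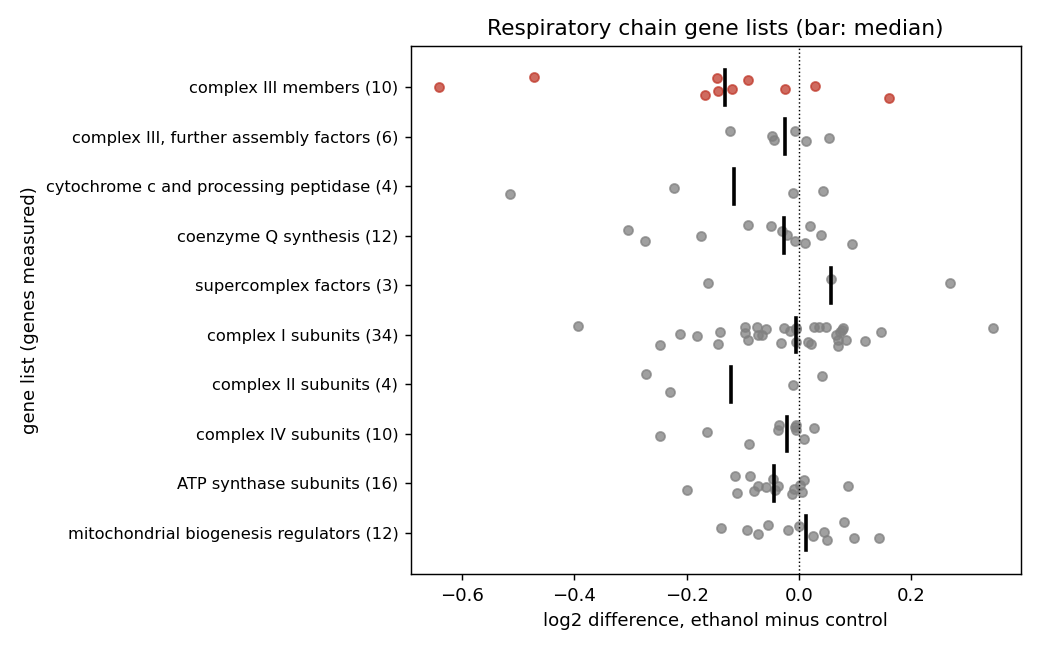
Log2 differences (horizontal axis, ethanol minus control) of single genes (points) in 10 lists of the respiratory chain, with list medians as bars and the complex III members in red. Uqcr11 at -0.64, Cycs at -0.51 and Uqcc2 at -0.47 are the points farthest to the left, and most other genes lie between -0.25 and 0.20.

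The supercomplex factors split by direction. Higd2a, which takes part in joining complexes III and IV, had log2 values of 12.43 and 12.25 in ethanol and 12.06 and 12.08 in control, a difference of 0.27 ± 0.08. Cox7a2l stood at 0.06 ± 0.08 and Higd1a at -0.16 ± 0.11.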

How the data were processed

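Total RNA was measured on 4 arrays. The deposited values are log2 signals, 1 per probe set and array; the base was taken as 2 from their range. The submitters' processing notes name Partek 6.6; how background was corrected and values normalized and summarised, and the genome build, is not stated there. Of 35556 probe sets, 21789 had 1 gene symbol, 1621 several and 12146 none. A GRCm38.p6 gene table gave current symbols by Entrez identifier (21698 matched, 91 kept the older symbol). Groups were compared with limma 3.58.1 in R 4.3.3 (lmFit, eBayes without trend, two-sided, Benjamini-Hochberg over the 21789), on 2 residual degrees of freedom (5.6 in total), and the fit was checked on simulated data. The number of arrays limits precision (median SE 0.079).

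The members and lists were chosen with earlier results of these data known. Named were all member probe sets, the lowest and highest gene of each pathway list, all genes of pathway lists of up to 7, and the 5 genes nearest in pattern to Uqcr11 and to Uqcc2, without predicted and small RNA genes. Marker lists are given by counts, medians and sums. Xist, Tubb3 with other neural markers, and the muscle forms of complex IV subunits are named beside them. Motif letters were chosen after the promoters were read. Alternatives were other feature sets, scalings, variance models, a replicate block and leaving out each array.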

Additional observations from a re-analysis of the deposited data

How the results depend on the processing

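Under repeated quantile normalization and median centring, 28 of 28 member values had the sign reported. Other feature sets and the replicate block leave a probe set's difference as it is by construction. With an array left out, 8 of 56 changed sign, which values with groups apart cannot do. These were in Uqcrb (ranges -0.3891 to 0.0548, -0.4292 to 0.0418 and -0.4081 to 0.0109), Uqcrc2 (-0.0611 to 0.0104) and Uqcrfs1 (-0.0595 to 0.1162). The median of the 10 other subunit probe sets (-0.13) was -0.0818 to -0.0075 with an array left out. It was nearest to 0 without ethanol 2, where the 3 Uqcrb probe sets lay just above 0. The count of limma calls at an adjusted p under 0.05 was 0 to 20 with an array left out (20 without control 2, 19 of them lower in ethanol) and 0 in the other alternatives run. The relaxed rule (unadjusted p under 0.05, at least 1.2-fold) took 219 probe sets (124 lower and 95 higher in ethanol, 96 and 115 after repeated quantile normalization). That count became 993 over all probe sets, 39 in the ordinary test and 152 to 1426 with an array left out (1309 without ethanol 2, 1426 without control 2). Groups lay apart in 6800 probe sets (3108 lower and 3692 higher in ethanol) and in 11200 of the whole table. Among the brighter ones they lay apart in 3944 (2382 lower and 1562 higher), where 13 of 14 member probe sets entered (Uqcr10 did not). With an array left out the count was 12642 to 16190, where 3 arrays separate more easily.

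No label says that the replicate numbers pair arrays, and the correlation of deviations between arrays of 1 number was -0.487. A replicate block gave 0 calls, lowered the limma count at an unadjusted p under 0.05 from 632 to 280, and took 211 probe sets by the relaxed rule. With crossed pairing, chosen after seeing the data, 0 were called and 432 passed that rule.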

Other observations

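Genes that supply coenzyme Q, the electron carrier that complex III oxidises, had 8 of 12 measured members below 0 and a median log2 difference of -0.03. Coq8a, a kinase-like protein of the pathway, had log2 values of 7.63 and 7.69 in ethanol and 8.22 and 7.71 in control, a difference of -0.30 ± 0.17 that rests on control 1. Coq9, a lipid-binding protein of the same pathway, had 8.58 and 8.72 in ethanol and 8.94 and 8.91 in control, a difference of -0.27 ± 0.08 with groups apart. Coq4 was highest of the list at 0.10 ± 0.11. None passed the adjusted test.

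The 12 regulators of mitochondrial gene expression had 5 members below 0 and a median of 0.01. They ran from Gabpa, the ETS factor of respiratory genes, at -0.14 ± 0.08 to Esrra, a nuclear receptor that acts with the coactivator Ppargc1a, at 0.14 ± 0.07. Nrf1 stood at 0.04 ± 0.08 and Yy1 at 0.05 ± 0.09, values named because their motif letters were searched. Of the muscle forms of complex IV subunits, Cox7a1 had log2 values of 7.60 and 7.54 in ethanol and 8.03 and 7.59 in control, highest in control 1 as the muscle markers were. Cox8b stood at -0.19 ± 0.11 and Cox6a2 at 0.03 ± 0.16, both likewise highest in control 1. Ethanol 2, next in the muscle sum, was not next here. It was the lowest pool for Cox7a1 and for Cox8b (6.59, against 6.62 in ethanol 1), and lay below ethanol 1 for Cox6a2 (8.02 against 8.25).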
